A study of Mus musculus with 6 samples.

Results

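The 8 genes described here, Scn4a, Ncam1, Runx1, Gadd45a, Cdkn1a, Hdac4, Hdac9 and Dach2, are regulators and targets of the denervation response of skeletal muscle outside the acetylcholine receptor. They were taken by symbol from the 41709 genes of the deposited table, and each symbol had 1 row. RNA-seq was done on 6 tibialis anterior (TA) muscles of male C57BL/6J mice, 3 electroporated with the pCMV6-LrpprcWT-3xFlag plasmid and 3 with pCMV6-LrpprcP27A-3xFlag. Both plasmids encode Flag-tagged mouse Lrpprc, an RNA-binding protein of mitochondria and nucleus, under the CMV promoter, which is not specific to a cell type. In LrpprcP27A a proline is replaced by alanine, so that this residue cannot be hydroxylated, and the comparison asks what the loss of that modification does to mRNA levels. The muscles of a pair were contralateral, and the age of the mice used for RNA-seq is not given in the sources used here. Every muscle was electroporated, and no denervated, untreated or empty-plasmid muscle was analysed here. All levels are therefore levels in one electroporated muscle relative to another.

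In innervated muscle, electrical activity keeps a set of genes low in the nuclei away from the synapse. Class IIa histone deacetylases couple this activity to chromatin: HDAC9 represses MEF2 target genes while the nerve is active, and after denervation HDAC4 gathers in the nuclei and represses the corepressor gene Dach2, so that myogenin and its targets rise. Gadd45a, Runx1, Ncam1 and Cdkn1a are known to rise in denervated muscle, whereas Scn4a encodes the adult muscle sodium channel that carries the action potential along the fibre.

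The values are TPM, the number of transcripts of a gene among 1000000 after allowing for gene length, so that levels can be compared between genes but no read depth is kept. The groups were compared by limma on log2(TPM + 1), with Benjamini-Hochberg adjustment over the 11611 genes with a mean of at least 1 TPM, and a gene is called where the adjusted p is under 0.05. Of the 8 regulators 7 passed this minimum and Dach2 did not. With LrpprcP27A, Ncam1, Runx1, Gadd45a and Cdkn1a fell, Scn4a rose, and Hdac4 and Hdac9 did not pass the test. The 4 decreases among 7 tested genes stand beside a background of 23.3% of all tested genes called lower, and the 1 increase beside 1.34% called higher. On the log2(TPM + 1) scale the median difference of the 7 was -1.29, against -0.32 for all tested genes.

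Sequence upstream of the start site is shown for 4 of the called regulators, Cdkn1a, Gadd45a, Runx1 and Scn4a, to let a reader see the letters near their starts. The sequences come from RefSeq on GRCm38.p6, another build than the GRCm39 of the expression table, and 7 of the 8 genes had at least 1 window. Ncam1 had none. Each line gives the 250 bases before the start site, 5′ to 3′ on the strand of the gene, and capitals mark a p53 motif (1 repeat unit, by name), an E-box (CANNTG) or a GC box (GGGCGG), searched on both strands.
Cdkn1a promoter 1, chr17:29090729-29090978, plus strand: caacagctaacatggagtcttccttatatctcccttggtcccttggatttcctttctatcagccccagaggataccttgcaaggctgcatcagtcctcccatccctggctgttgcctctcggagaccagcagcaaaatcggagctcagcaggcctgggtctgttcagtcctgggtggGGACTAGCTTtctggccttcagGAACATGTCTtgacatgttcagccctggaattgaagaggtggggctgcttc
Gadd45a, chr6:67037408-67037657, minus strand: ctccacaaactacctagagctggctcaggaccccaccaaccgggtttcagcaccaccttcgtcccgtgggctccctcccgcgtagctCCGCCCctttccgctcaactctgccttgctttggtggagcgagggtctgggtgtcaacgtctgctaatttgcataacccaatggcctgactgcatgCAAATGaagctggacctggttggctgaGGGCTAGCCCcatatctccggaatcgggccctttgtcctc
Runx1 promoter 1, chr16:92826075-92826324, minus strand: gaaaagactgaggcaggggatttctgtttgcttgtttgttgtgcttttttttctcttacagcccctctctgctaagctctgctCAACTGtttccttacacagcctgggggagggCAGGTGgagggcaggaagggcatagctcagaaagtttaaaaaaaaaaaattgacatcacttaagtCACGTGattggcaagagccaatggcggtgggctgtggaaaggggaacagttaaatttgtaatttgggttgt
Scn4a, chr11:106349391-106349640, minus strand: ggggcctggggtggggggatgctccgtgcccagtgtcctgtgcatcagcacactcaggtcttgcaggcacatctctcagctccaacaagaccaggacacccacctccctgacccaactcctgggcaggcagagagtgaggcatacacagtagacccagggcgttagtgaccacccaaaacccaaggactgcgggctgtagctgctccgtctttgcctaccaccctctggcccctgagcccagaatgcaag
The capitals in the Cdkn1a window are 2 p53 motifs, beginning 73 and 51 bases before the start. Those in the Gadd45a window are a GC box in its reverse form, an E-box at 67 bases and a p53 motif at 40 bases before the start, and those in the Runx1 window are 3 E-boxes. RUNX (TGTGGT) and MEF2 motifs were searched too and were not found in these 4 upstream windows. The same motifs stood before genes that were not called. Hdac9 held a p53 motif and 2 E-boxes before its promoter 1 and 3 E-boxes before its promoter 2, and Hdac4 held 4 GC boxes. The second promoter of Cdkn1a held no p53 motif, and that of Runx1 held none of the motifs searched. Of 32851 RefSeq windows of the same 250 bases, 7.13% held the p53 motif, 66.2% an E-box and 32.7% a GC box, and a match is only a description of the letters. Runx1 promoter 1 also held 2 copies of the RUNX motif TGTGGT, on the reverse strand, in the 28 bases beginning 20 bases after the start, shown here with the motifs in capitals.
Runx1, chr16:92826027-92826054, minus strand: cataaacaACCACAgaACCACAagttgg
The RUNX motif was in 16.8% of the full windows, which run from 250 bases before to 50 bases after the start. TPM values are per gene and do not tell the promoters of Runx1 or of Cdkn1a apart.

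Scn4a was the most abundant of the 8 regulators and the only one that rose. It encodes the pore-forming alpha subunit of the voltage-gated sodium channel of adult muscle and lies on GRCm39 at chr11:106208370-106256385, minus strand. Its level was 109.7, 109.3 and 91.4 TPM in LrpprcWT replicates 1, 2 and 3 and 129.6, 140.1 and 145.2 TPM in the LrpprcP27A replicates. Every LrpprcP27A muscle lay above every LrpprcWT muscle, and the means were 103.5 ± 10.5 and 138.3 ± 7.98 TPM (SD, n = 3 each), a ratio of 1.34. The log2 difference was 0.42 (SE 0.11, limma with Benjamini-Hochberg adjusted p = 0.0336), above 98.1% of all tested genes, where the median gene was below 0. Within pairs the ratio was 1.18, 1.28 and 1.59. Leaving out 1 library kept the sign in all 6 cases but kept the call only without LrpprcWT replicate 2, and the adjusted p rose to at most 0.122.

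Ncam1 encodes the neural cell adhesion molecule, which in adult muscle is found at the synapse and on satellite cells and spreads over the fibre after denervation (chr9:49413436-49710357, minus strand). Its level was 6.10, 3.91 and 8.51 TPM with LrpprcWT and 1.81, 1.14 and 1.36 TPM with LrpprcP27A. The groups did not overlap, with LrpprcWT replicate 3 highest and LrpprcWT replicate 2 closest to the other group. The means of 6.17 ± 2.30 and 1.44 ± 0.339 TPM (SD, n = 3 each) differed 4.30-fold, with a log2 difference of -1.51 (SE 0.24, limma with Benjamini-Hochberg adjusted p = 0.0126). Each LrpprcP27A muscle was at 0.296, 0.292 and 0.160 of its contralateral LrpprcWT muscle.

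Runx1 encodes a transcription factor that is low in innervated muscle and rises after denervation, where it limits atrophy (chr16:92398354-92623037, minus strand). Its level was 4.11, 2.30 and 6.70 TPM with LrpprcWT and 0.902, 0.602 and 0.947 TPM with LrpprcP27A. All LrpprcP27A muscles were under 1 TPM and all LrpprcWT muscles above 2 TPM. The ratio of the means, 4.37 ± 2.21 to 0.817 ± 0.188 TPM (SD, n = 3 each), was 5.35, and the log2 difference was -1.48 (SE 0.28, limma with Benjamini-Hochberg adjusted p = 0.0167). Because the LrpprcP27A values are near the pseudocount of 1, this log2 difference understates the ratio of the TPM values.

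Gadd45a encodes a small nuclear stress protein that in denervated or fasted muscle is induced downstream of HDAC4 and ATF4 and is able to cause fibre atrophy (chr6:67012070-67014441, minus strand). Levels were 49.0, 41.9 and 82.4 TPM with LrpprcWT and 18.4, 22.4 and 26.2 TPM with LrpprcP27A. Without overlap between the groups, the spread among the LrpprcWT muscles came mostly from replicate 3. The means were 57.8 ± 21.6 and 22.3 ± 3.90 TPM (SD, n = 3 each), 2.59-fold lower with LrpprcP27A, and the log2 difference was -1.29 (SE 0.24, limma with Benjamini-Hochberg adjusted p = 0.0166). Exons of an antisense RNA, E230016M11Rik, cover 55.8% of the exon bases of Gadd45a, and the library kit does not mark strand, so reads of the 2 genes cannot be told apart there. E230016M11Rik itself had 1.02, 0.607 and 1.02 TPM with LrpprcWT and 0.418, 0.239 and 0.344 TPM with LrpprcP27A, far below Gadd45a.

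Cdkn1a encodes p21, an inhibitor of cyclin-dependent kinases that marks the exit of muscle precursors from the cell cycle and is a p53 target (chr17:29309936-29319701, plus strand). It had 45.7, 33.1 and 50.8 TPM with LrpprcWT and 10.5, 8.29 and 15.4 TPM with LrpprcP27A. Even the lowest LrpprcWT muscle, replicate 2, was above the highest LrpprcP27A muscle, replicate 3. The means of 43.2 ± 9.09 and 11.4 ± 3.66 TPM (SD, n = 3 each) differed 3.79-fold, and the log2 difference was -1.85 (SE 0.23, limma with Benjamini-Hochberg adjusted p = 0.00890). On this scale it was the largest log2 difference of the 7 tested regulators, but with a pseudocount of 0.1 those of Runx1 (-2.18) and Ncam1 (-1.98) were larger than that of Cdkn1a (-1.94), as were their ratios of mean TPM. Antisense exons of Dino and Gm64878 cover 8.34% and 4.12% of its exon bases. Neither has values in the deposited TPM, and without strand their reads cannot be told from those of Cdkn1a there.

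**Figure D1:**
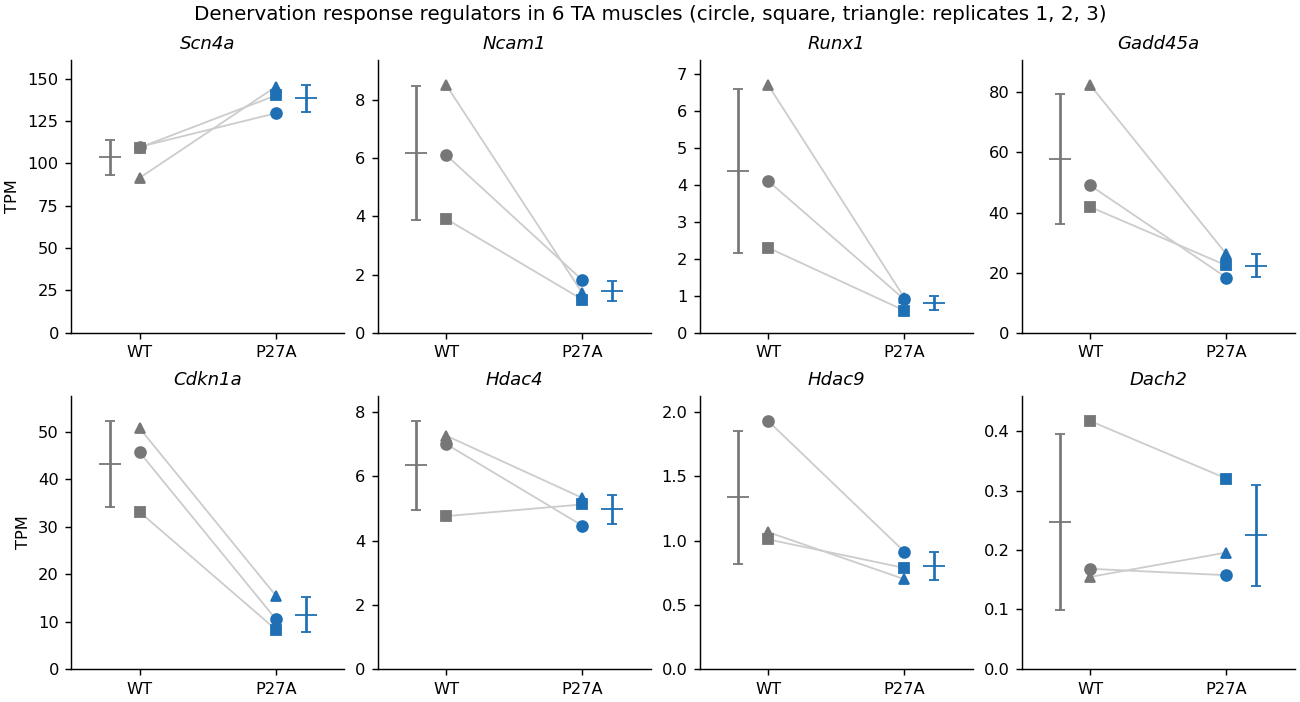
TPM of each of the 8 denervation regulators (y axes, each from 0) in the LrpprcWT and LrpprcP27A muscles (x axis), with contralateral muscles joined by a line and bars at the mean ± SD, n = 3 per group. Ncam1, Runx1, Gadd45a and Cdkn1a are lower in every LrpprcP27A muscle than in any LrpprcWT muscle, Scn4a is higher, and Hdac4 and Dach2 overlap.

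The deacetylases Hdac4 and Hdac9, which link activity to these genes, did not pass the test, and their corepressor target Dach2 was too low for it. Hdac4, the class IIa deacetylase that accumulates in denervated fibres and represses Dach2, had 7.01, 4.76 and 7.28 TPM with LrpprcWT and 4.47, 5.13 and 5.33 TPM with LrpprcP27A (chr1:91855937-92123421, minus strand). The groups overlapped, since LrpprcWT replicate 2 lay below 2 of the LrpprcP27A muscles. The log2 difference was -0.28 (SE 0.17, limma with Benjamini-Hochberg adjusted p = 0.207), which is close to the median of all genes. Without LrpprcWT replicate 2 it was -0.45 and passed the test (adjusted p = 0.0136). In that setting 59.5% of all tested genes were called lower, and their median log2 difference, over called and uncalled genes alike, was -0.42.

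Hdac9, whose muscle isoform lacks the deacetylase domain and represses MEF2 while the nerve is active, had 1.93, 1.01 and 1.07 TPM with LrpprcWT and 0.913, 0.787 and 0.699 TPM with LrpprcP27A (chr12:34097579-34967094, minus strand). Each LrpprcP27A muscle was below each LrpprcWT muscle, but the log2 difference of -0.36 (SE 0.18) did not pass the test (limma with Benjamini-Hochberg adjusted p = 0.138). Dach2, a corepressor that holds myogenin down in innervated muscle, was near 0 throughout, with 0.169, 0.417 and 0.155 TPM with LrpprcWT and 0.158, 0.320 and 0.196 TPM with LrpprcP27A (chrX:112207186-112746083, plus strand). Its groups overlapped and their means were 0.247 ± 0.148 and 0.225 ± 0.0850 TPM (exact permutation test, two-sided, p = 0.9, where 3 against 3 cannot go below 0.1).

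Within the class IIa family, Hdac4 took 15.9, 16.6 and 19.995% of the summed TPM of Hdac4, Hdac5, Hdac7 and Hdac9 with LrpprcWT and 15.6, 21.4 and 21.6% with LrpprcP27A. The shares overlapped and differed by 2.02 percentage points (exact permutation test, two-sided, p = 0.4). A share within a library does not move with the total of the library. Among 14 tested HDAC partners, MEF2 factors and their kinases, 4 were called, all of them lower, beside the 23.3% of all tested genes. With the replicate block 6 were called lower, beside 48.4%. Sik1, a kinase that exports class IIa deacetylases from the nucleus, fell from 37.5 ± 8.67 to 17.1 ± 5.12 TPM (SD, n = 3 each; log2 difference -1.10, limma with Benjamini-Hochberg adjusted p = 0.0196). Hdac7 changed by -0.76 (adjusted p = 0.0255), Camk2d by -0.57 (adjusted p = 0.0327) and Camk2b by -0.46 (adjusted p = 0.0271), the last pair being calcium-dependent kinases that also act on these deacetylases. With median-of-ratios scaling only Sik1 was still called lower, beside 6.03% of all tested genes, and Camk2a and Camk2g were called higher.

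The 7 tested regulators were also compared after the libraries were set to a common scale. Of all tested genes 88.0% were below 0 on the deposited scale, and median-of-ratios scaling, which sets the typical gene to no change, moved the median from -0.32 to about 0. Ncam1, Runx1, Gadd45a and Cdkn1a then had log2 differences of -1.24, -1.24, -0.92 and -1.50 and adjusted p of 0.0228, 0.0284, 0.0386 and 0.0203 (limma with Benjamini-Hochberg adjustment), and all 4 were again called lower where the background was 6.03%. Scn4a then had a log2 difference of 0.79 (adjusted p = 0.0329), called higher where the background was 5.25%. Hdac4 turned to 0.04 and Hdac9 was at -0.16, neither of them called. With the replicate number as a block, which compares the muscles within pairs, the same 4 genes were called lower and Scn4a higher, but 48.4% of all tested genes were then called lower and 2.69% higher. By groups that do not overlap, 5 of the 7 were below and 1 was above, against 47.6% and 3.51% of all tested genes.

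**Figure D2:**
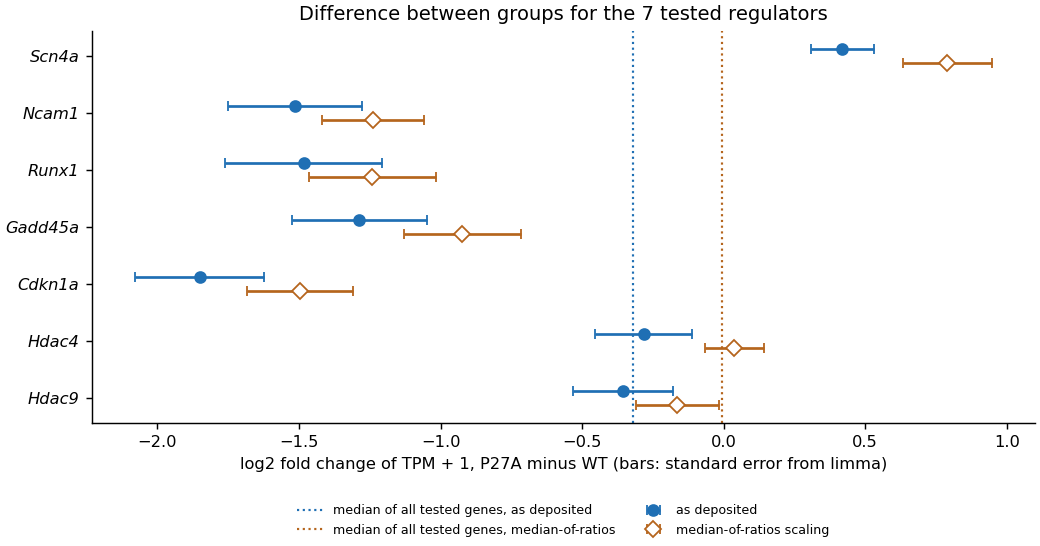
Log2 difference of TPM + 1, LrpprcP27A minus LrpprcWT (x axis), of the 7 tested regulators (y axis) on the deposited scale (filled circles) and after median-of-ratios scaling (open diamonds), with limma standard errors as bars and the median of all tested genes dotted. Ncam1, Runx1, Gadd45a and Cdkn1a stay left of the dotted lines and Scn4a right of them under both scalings, whereas Hdac4 and Hdac9 lie near the lines.

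Other sodium channel genes were read beside Scn4a. Of 13 listed, 3 were tested, and Scn7a, an atypical sodium channel known from glia and sensory neurons, was the 1 that fell, with 2.54, 1.44 and 2.31 TPM with LrpprcWT and 0.910, 1.01 and 1.06 TPM with LrpprcP27A (log2 difference -0.62, limma with Benjamini-Hochberg adjusted p = 0.0358). Under median-of-ratios scaling it was not called (adjusted p = 0.0672). Scn4b, a beta subunit, had 192.0, 196.1 and 187.7 TPM with LrpprcWT and 211.4, 221.7 and 224.3 TPM with LrpprcP27A. The groups did not overlap, yet the log2 difference of 0.19 did not pass on the deposited scale (adjusted p = 0.127) and did so with median-of-ratios scaling (0.56, adjusted p = 0.0386). Scn9a, a channel of sensory neurons, was listed at 0 in all 6 libraries.

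**Figure D3:**
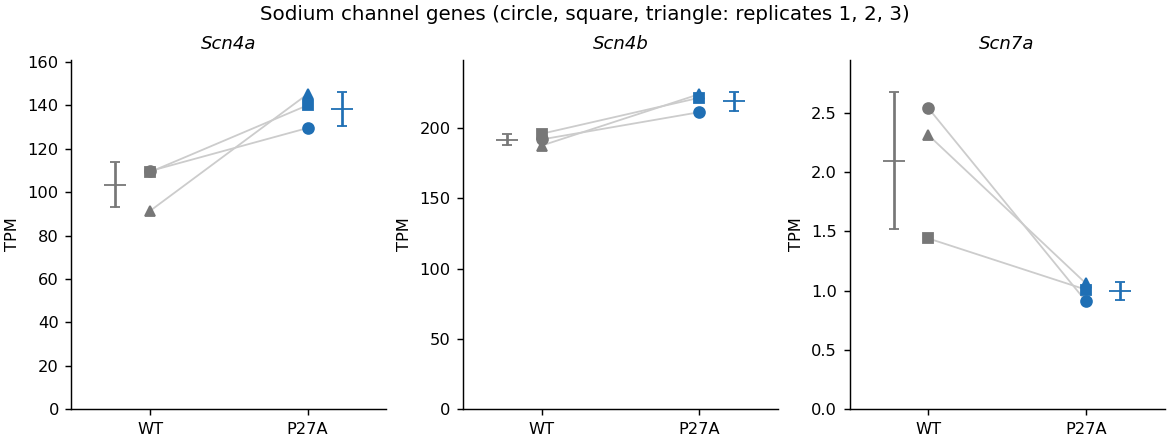
TPM of Scn4a, Scn4b and Scn7a (y axes, each from 0) in the LrpprcWT and LrpprcP27A muscles (x axis), with contralateral muscles joined and bars at the mean ± SD, n = 3 per group. Scn4a and Scn4b are higher and Scn7a is lower in every LrpprcP27A muscle than in any LrpprcWT muscle.

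Other genes known to rise in denervated muscle moved with the 4 regulators in part. Of 15 listed, 13 were tested, and 9 were called lower and 1 higher, beside 23.3% and 1.34% of all tested genes. The median log2 difference of the list was -1.79, against -0.32 for all tested genes. On the log2(TPM + 1) scale, which compresses low genes, the largest decreases were in Rrad, a small GTPase that limits calcium entry (-3.06, adjusted p = 0.00384), the perinatal and embryonic myosins Myh8 (-2.90, adjusted p = 0.0116) and Myh3 (-2.62, adjusted p = 0.0205), and Myog, the myogenin gene (-2.35, adjusted p = 0.0116), all by limma with Benjamini-Hochberg adjustment. Myog had 34.4, 21.99 and 53.1 TPM with LrpprcWT and 9.20, 3.51 and 6.16 TPM with LrpprcP27A, and no values overlapped. The receptor subunits Chrna1, Chrnb1, Chrnd and Chrng were among the 9. Chrng, the fetal gamma subunit, was lower by the largest ratio of mean TPM of the 9, from 2.74 ± 1.51 to 0.158 ± 0.104 TPM (SD, n = 3 each), or 17.4-fold, against 10.2-fold for Rrad. Chrna1 was at -2.14 (adjusted p = 0.0100), as was Ankrd1, encoding a stress protein of the sarcomere, at -2.08 (adjusted p = 0.0125).

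The list also holds 3 ubiquitin ligase genes of protein breakdown, of which 1 was called. Fbxo32, encoding atrogin-1, rose from 67.1 ± 7.41 to 112 ± 19.6 TPM (SD, n = 3 each; log2 difference 0.72, limma with Benjamini-Hochberg adjusted p = 0.0202). Trim63, encoding MuRF1, was at -0.08 (adjusted p = 0.760) with overlapping groups, Fbxo30 was at -0.55 (adjusted p = 0.0822), and Musk, the synaptic receptor kinase, at -0.66 (adjusted p = 0.101). With median-of-ratios scaling the list still had 9 genes called lower and 1 higher, beside 6.03% and 5.25% of all tested genes. With the replicate block Musk and Fbxo30 were called lower as well, beside 48.4% of all tested genes. Without LrpprcWT replicate 3 the number called lower was 2, beside 0.129% of all tested genes.

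The myogenic factors, with the Dach genes and their partners in transcription, had 10 tested genes, of which Myog, Myf5 and Myf6 were called, all of them lower, beside the 23.3% of all tested genes. Myf5, a marker of satellite cells, differed by -0.87 (adjusted p = 0.0160) and Myf6 by -0.56 (adjusted p = 0.0348, limma with Benjamini-Hochberg adjustment). Myod1 was at -0.66 and just missed the threshold (adjusted p = 0.0540, or 0.000749 with the replicate block), and Dach1, the only tested Dach gene, was at -0.41 (adjusted p = 0.182, or 0.0488 with the replicate block). With median-of-ratios scaling 2 genes of this list were called lower, and Eya1 was called higher, and with the replicate block 7 of the 10 were called lower, beside 48.4% of all tested genes.

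Beside Gadd45a and Cdkn1a stand 20 tested Gadd45, CDK inhibitor and p53 target genes, of which 8 were called, all of them lower, beside the 23.3% of all tested genes. Cdkn1c, encoding the related inhibitor p57, fell by 1.45 on the log2 scale (adjusted p = 0.0116), Btg2, an antiproliferative early gene, by 1.41 (adjusted p = 0.0111) and Eda2r, a death receptor of muscle, by 1.25 (adjusted p = 0.0160), by limma with Benjamini-Hochberg adjustment. Bbc3 was at -0.91 (adjusted p = 0.0271), Gadd45b at -0.77 and Trp53 itself at -0.74 (adjusted p = 0.0382 for both). Other p53 targets did not pass, among them Mdm2, the p53 ligase (-0.29, adjusted p = 0.0706), and Ccng1 (-0.01, adjusted p = 0.927), and Gadd45g was at 0.10 with a wide spread (adjusted p = 0.765). The median of the list was -0.39, near the -0.32 of all tested genes, and after median-of-ratios scaling 3 genes were called lower and 2 higher.

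**Figure D4:**
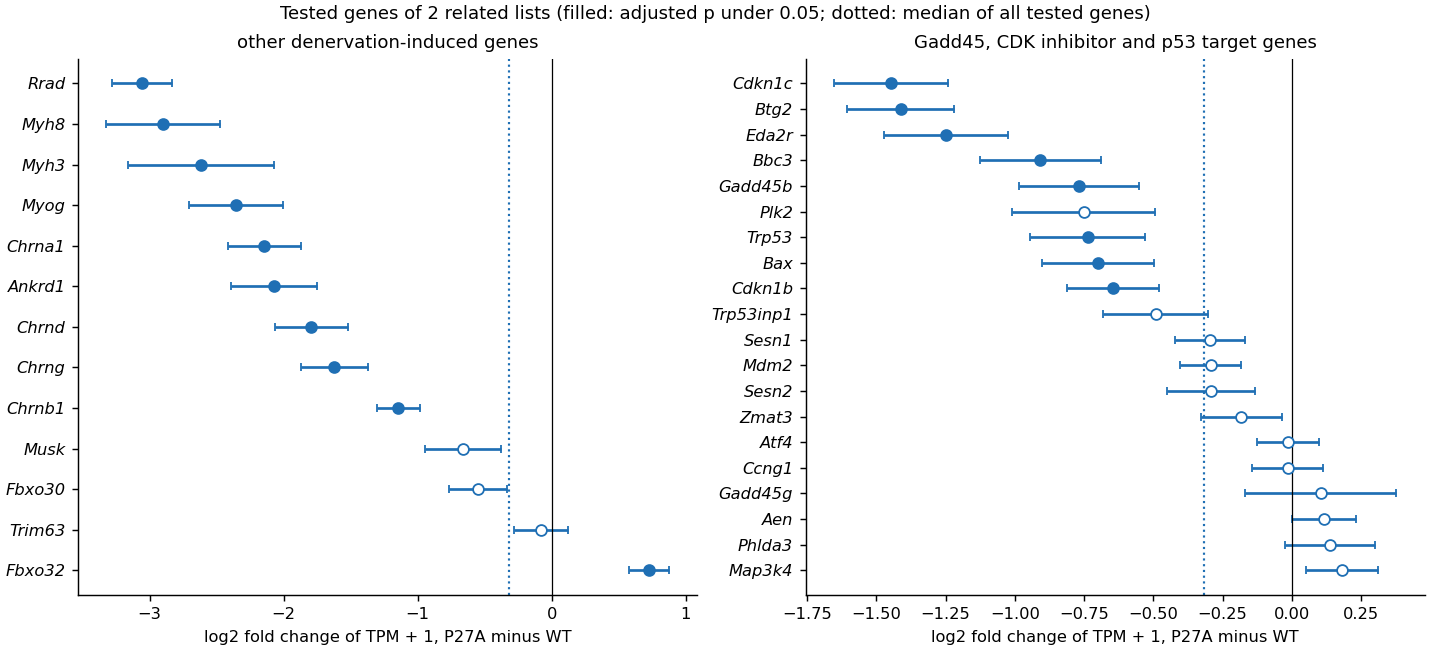
Log2 difference of TPM + 1, LrpprcP27A minus LrpprcWT (x axes), on the deposited scale for the tested genes (y axes) of 2 lists, with limma standard errors as bars, filled points called at an adjusted p under 0.05 and the median of all tested genes dotted. In the list of other denervation-induced genes 9 points are called left of 0 and Fbxo32 right of it, and in the list of Gadd45, CDK inhibitor and p53 target genes 8 are called left of 0.

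The remaining lists concern partners of Ncam1 and Runx1. Of 4 tested NCAM partners 3 were called lower, beside 23.3% of all tested genes. They were Gdnf, a growth factor of motor neurons that signals through NCAM (-1.21, adjusted p = 0.0100), the kinase Fyn (-0.999, adjusted p = 0.0401) and the receptor Fgfr1 (-0.64, adjusted p = 0.0374), by limma with Benjamini-Hochberg adjustment. Gdnf had 2.84, 2.25 and 3.18 TPM with LrpprcWT and 0.738, 0.666 and 0.457 TPM with LrpprcP27A. It was the 1 called lower with median-of-ratios scaling, beside 6.03% of all tested genes. St8sia2, which adds polysialic acid to NCAM, was below the minimum, at 0.948, 0.543 and 1.37 TPM with LrpprcWT and 0.196, 0.0663 and 0.104 TPM with LrpprcP27A. Of the Runx family only Cbfb, the partner subunit of RUNX proteins, was tested, at -0.37 (adjusted p = 0.0576). It was called lower with the replicate block (adjusted p = 0.0225), beside 48.4% of all tested genes.

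Markers of cells other than fibres moved with the groups as well, which touches genes that such cells express, Ncam1 and Cdkn1a in satellite cells and Runx1 in blood cells among them. The counts of markers that fell, meaning called lower, stand beside 23.3% of all tested genes. All 6 tested macrophage markers fell, and their 8 markers summed to 226.3 to 417.8 TPM with LrpprcWT and 77.1 to 142.6 TPM with LrpprcP27A. Of 8 fibroblast markers 7 fell, from a sum of 930.3 to 1541 down to 275.9 to 555.6 TPM. Of 6 tested satellite cell markers 5 fell, with sums of 70.3 to 104.8 and 52.1 to 53.7 TPM. Of 5 tested markers of other leukocytes 2 fell (34.1 to 54.9 and 25.2 to 37.1 TPM), and of 8 endothelial markers 3 fell (218.7 to 383.4 and 149.2 to 216.1 TPM). The 3 tested Schwann cell markers gave 0 calls by limma, at an adjusted or an unadjusted p under 0.05, with sums of 21.4 to 41.9 and 18.8 to 38.5 TPM. The 10 myofibre markers had sums of 141791 to 156658 and 130965 to 147941 TPM, with Myh2 and Mylpf called lower. With median-of-ratios scaling 3 macrophage, 5 fibroblast and 2 satellite cell markers were called lower and 0 endothelial ones, beside 6.03% of all tested genes. With the replicate block 7 endothelial markers were called lower, beside 48.4% of all tested genes. No marker of these lists was at 0 in all libraries. The part of these cells in the differences of Ncam1, Runx1, Gadd45a and Cdkn1a was not tested, and in bulk tissue fewer cells of a type and less RNA per cell cannot be told apart.

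Other features of the libraries were read by group as well. Genes of the mitochondrial genome took 36.0 to 45.2% of the TPM with LrpprcWT and 44.2 to 46.1% with LrpprcP27A, so the groups overlapped. Ribosomal RNA genes took 0.888 to 1.76% and 3.70 to 4.44%, without overlap. Neither share was tested. Lrpprc itself, which both plasmids encode, had 35.1, 37.0 and 75.2 TPM with LrpprcWT and 26.9, 29.7 and 26.0 TPM with LrpprcP27A, and plasmid and endogenous transcripts cannot be told apart in these values. The difference did not pass the test (log2 -0.72, limma with Benjamini-Hochberg adjusted p = 0.0652) but did so with the replicate block (adjusted p = 0.00243). LrpprcWT replicate 3, the muscle with the most Lrpprc, also had the highest Ncam1, Runx1, Gadd45a, Cdkn1a and Hdac4 of the 6 and the lowest Scn4a, and the part of the Lrpprc level in these differences was not tested.

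The calls on the 4 lower regulators rested in part on that library. Without LrpprcWT replicate 3, limma with Benjamini-Hochberg adjustment gave adjusted p of 0.0819 for Ncam1, 0.0889 for Runx1, 0.0802 for Gadd45a and 0.0768 for Cdkn1a, and only 15 genes of all tested were called lower. The log2 differences were still -1.29, -1.18, -1.004 and -1.73. Without LrpprcWT replicate 1 Runx1 was also lost (adjusted p = 0.0509), where 2.51% of all tested genes were called lower. In the other 4 cases all 4 regulators were called, beside 3.79% to 59.5% of all tested genes. Over the 6 cases the log2 difference ranged from -1.76 to -1.29 for Ncam1, -1.79 to -1.18 for Runx1, -1.48 to -1.004 for Gadd45a and -2.07 to -1.66 for Cdkn1a.

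**Figure D5:**
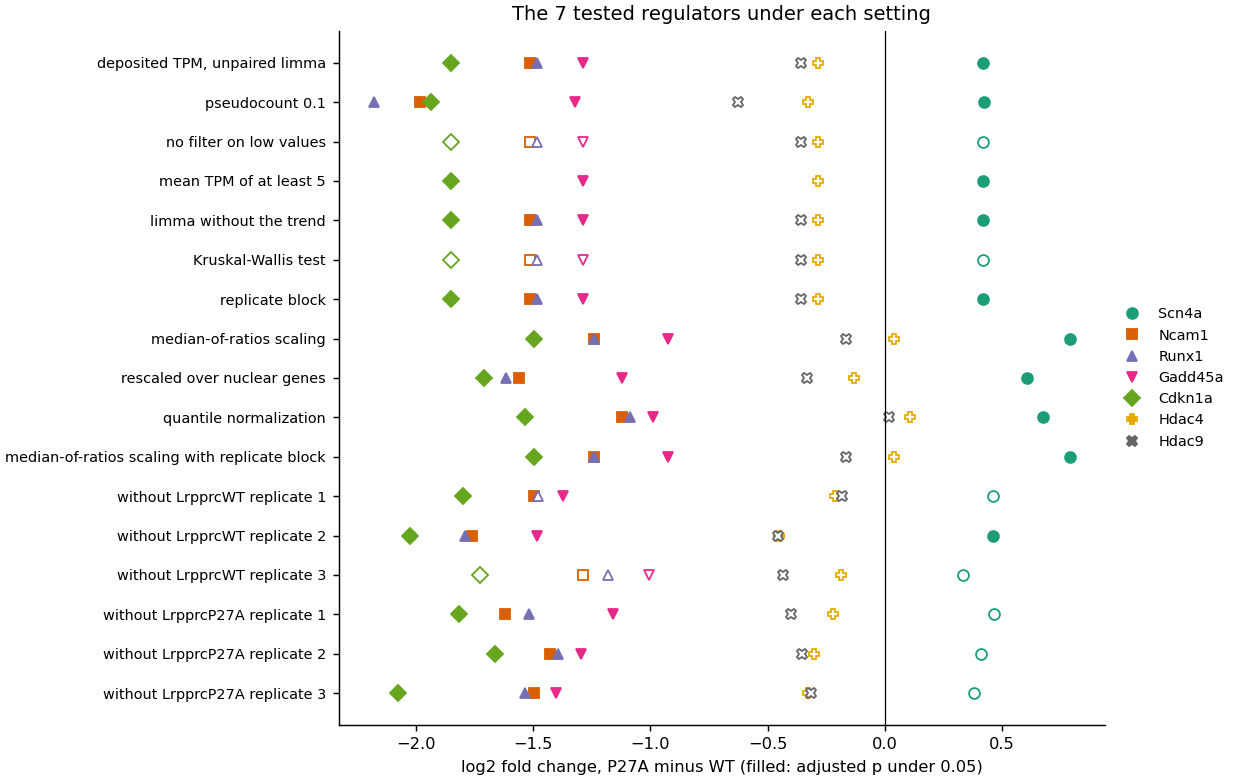
Log2 difference, LrpprcP27A minus LrpprcWT (x axis), of the 7 tested regulators under each setting of the analysis (y axis), filled where the adjusted p is under 0.05. Ncam1, Runx1, Gadd45a and Cdkn1a lie below 0 and Scn4a above 0 in every setting in which they were tested, whereas Hdac4 and Hdac9 cross 0 with quantile normalization and Hdac4 also with median-of-ratios scaling, and the points without a fill gather where no filter, the Kruskal-Wallis test or LrpprcWT replicate 3 left out was used.

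The genes whose log2 pattern over the 6 libraries was most like that of each of the 7 tested regulators, by Pearson's r among all tested genes, give a further description of these libraries, which all share the same 2 groups. Scn4a was closest to Dhdh (r = 0.9985), Ncam1 to Echs1 (r = 0.9991), Runx1 to Golph3l (r = 0.9995) and Gadd45a to Resf1 (r = 0.9987). Cdkn1a was closest to Nsrp1 (r = 0.9976), Hdac4 to Tmem167 (r = 0.9956) and Hdac9 to Tnfrsf14 (r = 0.9974), with Six4 next for Hdac9 (r = 0.9963). Likeness of pattern is not likeness of size: Echs1 differed by -0.21 where Ncam1 differed by -1.51.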

How the data were processed

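RNA was extracted in Trizol from the 6 TA muscles, and libraries were made with the TruSeq RNA Sample Prep v2 kit, which does not mark strand, and sequenced on an Illumina NovaSeq. The authors trimmed the reads, mapped them with CLC Genomics Workbench to GRCm39/mm39 and deposited a table of TPM per gene, which sum to 1000000 in each library. The annotation version is not given in the sources used here, and TPM keeps no depth, so counting error is unknown and only the spread between muscles is given. The labels state an RNA input of milligrams, where the methods state micrograms.

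From the deposited TPM, log2(TPM + 1) was fitted by limma 3.58.1 in R 4.3.3, without pairing, with empirical Bayes moderation and a trend, for the 11611 genes with a mean of at least 1 TPM. P-values were adjusted by Benjamini-Hochberg over these genes and called under 0.05. A log2 difference on this scale understates the change of low genes. The Hdac4 share and Dach2 were compared by two-sided exact permutation tests over the 6 samples. Groups were taken from the labels. The library numbers were treated as pairing the samples, since the muscles were contralateral and deviations from the group means correlated by 0.36, 0.53 and 0.36 in the 3 same-numbered pairs, against -0.36 to 0.004 in the others. The fit was tested on simulated data.

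All 8 members were named with every value. From each list the called genes were named, up to 6 of them, largest difference first, and other list genes were chosen after their values were seen. Some genes of the lists and comparisons are not reported here. Patterns were compared by Pearson's r over the 6 libraries. The members, lists and motifs were chosen with earlier results of these data known. Positions are from GENCODE on GRCm39 and promoter windows from RefSeq on GRCm38.p6. Alternatives were a pseudocount of 0.1, no filter, a mean of at least 5 TPM, no trend, the Kruskal-Wallis test, the replicate block, 3 other scalings, both of the last combined for median-of-ratios, and each library left out. Counts over the lists under these alternatives were added after the data were seen.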

Additional observations from a re-analysis of the deposited data

How the results depend on the processing

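The number of regulators called lower was 4 in the reported fit, 4 with the replicate block, which uses the pairing of contralateral muscles, and 4 with each other scaling, and the number called higher was 1 in all of these. Without a filter on low values the counts were 0 lower and 0 higher. In that fit 21450 genes were tested, of which 42 were called lower and 9 higher. Before adjustment, its limma p was under 0.05 for 4 regulators with a decrease and 1 with an increase. Of the 21450 genes, 6671 with a decrease and 429 with an increase met that same limit. With a mean of at least 5 TPM the count was 2 lower, as only 4 of the regulators were then tested, beside 22% of all tested genes. With the Kruskal-Wallis test both counts were 0, since genes without overlap reach an adjusted p of 0.0969 at best, and no gene was called, while its unadjusted p was under 0.05 for 5 regulators lower and 1 higher and for 5530 and 407 genes in all. Leaving out 1 library at a time gave 0 to 5 called lower and 0 to 1 called higher. The 5 lower and 1 higher came without LrpprcWT replicate 2, where 59.5% and 2.62% of all tested genes were called. The 0 lower came without LrpprcWT replicate 3, where 0.129% of all tested genes were called lower. The sign turned for Hdac4 with median-of-ratios scaling (0.038 on the log2 scale, also with the replicate block) and with quantile normalization (0.11), and for Hdac9 with quantile normalization (0.020), and neither was called in these fits. The cause was not tested. No sign turned for the other 5 tested regulators in any setting, or for the Hdac4 share when a library was left out. Over all tested genes the number called moved from 2705 lower and 156 higher to 5619 and 312 with the block, 700 and 610 with median-of-ratios scaling, 662 and 221 after rescaling over nuclear genes and 518 and 493 with quantile normalization.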

Other observations

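Genes below the minimum for testing also lay lower with LrpprcP27A in several cases, and they are given as values only. Runx2, a relative of Runx1 known from bone, had 1.23, 0.724 and 0.710 TPM with LrpprcWT and 0.398, 0.242 and 0.230 TPM with LrpprcP27A. Gdf5, a growth factor that counters denervation atrophy, had 0.618, 0.727 and 0.447 TPM with LrpprcWT and 0.0865, 0.0439 and 0.241 TPM with LrpprcP27A. Scn3a, a sodium channel of embryonic neurons, had 0.550, 0.0936 and 0.283 TPM with LrpprcWT and 0.0553, 0.0481 and 0.0840 TPM with LrpprcP27A. These genes were chosen after their values were seen. Their groups did not overlap, whereas those of Runx3 and of Scn2b did. Every LrpprcP27A library was below every LrpprcWT library in 47.6% of all tested genes. No such share was computed for genes below the minimum, to which all of these genes belong.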
